A study of Homo sapiens with 12 samples.

Results

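The genes described here are the box C/D small nucleolar RNA (snoRNA) genes, taken as the rows of 2 deposited gene tables whose Ensembl identifier maps to a symbol starting with SNORD. Of 331 such rows, 119 rows of the imprinted clusters SNORD113, SNORD114, SNORD115 and SNORD116 were left out, and the remaining 212 rows gave 151 members among 58243 rows of each table. For the 35 symbols with more than 1 row (at most 7), the row with the highest average level was used. A member row covered between 60 and 791 bases, with a median of 79, and 143 of the 151 were 150 bases or shorter, which is the length of 1 sequencing read. In RefSeq (GRCh38.p14), 127 of the 151 lay on a SNORD gene, 118 of them under the same symbol and 9 under a related one, and 24 lay where the RefSeq list used here has no SNORD gene.

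HPB-ALL and KOPTK1 are established human cell lines of T-cell acute lymphoblastic leukemia (T-ALL). Each line was infected with lentiviral pLKO.1 vectors that carried either an shRNA against GFP, the control shRNA group, or an shRNA against SHQ1, the SHQ1 shRNA group, with 3 libraries in each group of each line and 12 in all. Cells of every group were kept in 2 μg/ml puromycin for 48 h (by the methods, after 48 h of culture), and rRNA-depleted total RNA was sequenced. SHQ1 is an assembly factor of the other large snoRNA class, the box H/ACA particles, and the study asked how its loss affects RNA processing in T-ALL cells. The columns of single libraries could not be tied to samples, so SHQ1 shRNA was not compared with control shRNA for any gene here, and neither the depth nor the spread of single libraries is given. What was compared is the authors' average log2 CPM (read counts scaled to the size of the library) over the 6 libraries of a line, which pools both shRNA groups. There is 1 such value per gene and line, with no error, no replicate check and no test. A difference between the lines therefore cannot be told apart from a different response of the lines to SHQ1 shRNA, nor from differences between the 2 tables, which were normalized separately.

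Box C/D snoRNAs guide 2′-O-methylation. Each carries a box C near its 5′ end and a box D near its 3′ end, folds these boxes together, and pairs a stretch beside a box D with the target RNA, usually ribosomal RNA. The proteins FBL (fibrillarin, the methyltransferase), NOP56, NOP58 and SNU13 bind the boxes. A few members, such as U3 (SNORD3), U8 (SNORD118), U13 (SNORD13), U14 (SNORD14) and U22 (SNORD22), act in the cleavage of pre-rRNA. In human cells most box C/D snoRNAs are not transcribed alone: they lie in introns of host genes, many of which encode ribosomal or nucleolar proteins, and are released when the spliced intron is trimmed. Reads of unspliced host RNA fall on the same bases as reads of the mature snoRNA, and the 2 sources cannot be told apart in these tables.

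The sequences printed here are those of members on which the results turn. All are written 5′ to 3′ as the transcript of the same gene identifier in GENCODE 44 (lifted to GRCh37), with an exact box C (TGATGA, starting within the first 16 bases) and an exact box D (CTGA, within the last 16 bases) in capitals. The first set holds the members with the highest level per length in HPB-ALL (ranks 1 and 3 in KOPTK1), SNORD86 of NOP56 (chr20:2656097-2656182, plus strand, GRCh38) and SNORD45A of RABGGTB (chr1:75787889-75787972, plus strand), both without an exact box C.
SNORD86: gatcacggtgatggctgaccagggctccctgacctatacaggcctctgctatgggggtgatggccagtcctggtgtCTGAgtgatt
SNORD45A: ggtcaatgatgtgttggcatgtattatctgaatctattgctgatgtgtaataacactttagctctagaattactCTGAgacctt
The second set is the SNORD12 family of ZFAS1, all of which were lower in HPB-ALL than in KOPTK1. SNORD12C lies at chr20:49278940-49279028 on the plus strand.
SNORD12C: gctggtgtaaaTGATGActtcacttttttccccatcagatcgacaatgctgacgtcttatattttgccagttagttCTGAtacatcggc
SNORD12B: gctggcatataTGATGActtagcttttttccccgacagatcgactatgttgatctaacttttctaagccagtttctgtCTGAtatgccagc
SNORD12: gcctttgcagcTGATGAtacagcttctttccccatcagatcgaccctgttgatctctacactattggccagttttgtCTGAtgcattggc
The third set is the U14 family of HSPA8, in which SNORD14E alone had a difference past 1.5-fold between the lines. SNORD14E lies at chr11:123058077-123058161 on the minus strand.
SNORD14C: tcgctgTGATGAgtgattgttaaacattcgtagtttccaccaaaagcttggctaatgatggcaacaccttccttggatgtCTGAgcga
SNORD14D: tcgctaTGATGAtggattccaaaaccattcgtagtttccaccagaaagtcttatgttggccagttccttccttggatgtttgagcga
SNORD14E: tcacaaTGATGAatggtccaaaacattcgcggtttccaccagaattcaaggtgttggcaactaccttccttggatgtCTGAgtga
The last set holds 2 like members of RPL3 that were higher in HPB-ALL while the host was lower, the row named SNORD42, and SNORD42B of RPL23A for comparison with it. SNORD42 lies in an intron of TTC28 (chr22:28232756-28232823, minus strand) and holds neither box.
SNORD83A: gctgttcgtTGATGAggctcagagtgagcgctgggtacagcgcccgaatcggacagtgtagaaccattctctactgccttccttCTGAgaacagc
SNORD83B: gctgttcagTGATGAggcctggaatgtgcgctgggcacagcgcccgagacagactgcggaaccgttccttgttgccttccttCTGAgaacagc
SNORD42B: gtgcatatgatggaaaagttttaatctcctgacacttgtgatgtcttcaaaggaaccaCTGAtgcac
SNORD42: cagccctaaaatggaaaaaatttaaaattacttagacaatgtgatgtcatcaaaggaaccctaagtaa
In the ZFAS1 family the sequences were 71.3% to 74.5% identical in global alignments and shared the run cagatcgac in all 3. In the HSPA8 family the identity was 75.3% to 78.9%, and all 3 shared ccttccttggatgt near the 3′ end. SNORD83A and SNORD83B were 79.8% identical, whereas SNORD43, the other member of RPL3, was 50.5% and 51.6% identical to them. SNORD42 was 69.4% identical to SNORD42B and 64.9% to SNORD42A.

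The letters of both boxes were common in the members and rare in other short rows, apart from scaRNA (Cajal body RNA) rows. Exact boxes C and D were found in 75 of 126 members that lie on a RefSeq SNORD gene and have a transcript of the same length (59.5%). When the last base of box C was left free (TGATG), the count was 102 (81.0%), since members such as SNORD86 carry TGATG followed by another base. Among the 24 members at places with no RefSeq gene, 8 held both exact boxes (33.3%) and 9 held the shorter box C with box D (37.5%). No box H/ACA row of 60 to 150 bases held the pair (0 of 349), and 3 of 4557 other named rows of that length did (0.066%). Box D alone was less selective: CTGA stood in the last 16 bases of 87.3% of members on a RefSeq gene, against 5.97% of the other named rows. Only the given strand was searched, and a window without the letters says nothing about the function of the RNA.

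The highest members by average level were 3 of the 4 U3 rows and SNORD17, which lies in an intron of the sorting nexin gene SNX5. SNORD3A had an average log2 CPM of 4.77 in HPB-ALL and 5.0 in KOPTK1. SNORD3B-2 had 4.69 and 4.78, and SNORD3B-1 had 4.06 and 3.60. SNORD17 had 3.51 in HPB-ALL, where it ranked 4, and 3.99 in KOPTK1, where it ranked 3 and stood above SNORD3B-1. SNORD86 ranked 5 in both lines with 3.29 and 3.44. The remaining U3 row, SNORD3C, was far lower at -0.15 and 0.39. These 5 rows took 30.8% of the summed CPM of the 151 members in HPB-ALL and 30.2% in KOPTK1, and the 4 U3 rows alone took 23.9% and 22.4%. The U3 rows are long for their product: they cover 581 to 791 bases in the tables, whereas RefSeq gives each U3 gene 217 bases, so their values can include reads from flanking bases. The U3 genes are also near-identical copies, and how reads were shared among them by the authors' counting is uncertain.

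Per length of the row, the order was different. SNORD86 was first in both lines, with 113.5 CPM per kilobase in HPB-ALL and 126 in KOPTK1. SNORD45A had 78.1 and 72.1 CPM per kilobase, and SNORD2, in an intron of the translation factor gene EIF4A2, had 58.3 and 68.9. SNORD96A, in an intron of RACK1, which encodes a protein of the small ribosomal subunit, ranked 3 in HPB-ALL with 64.5 CPM per kilobase and had 50.1 in KOPTK1. SNORD50, which lies in VPS29 on chromosome 12 away from any RefSeq SNORD gene, had 60.5 and 62.9. SNORD12C ranked 2 in KOPTK1 with 78.1 CPM per kilobase and had 39.2 in HPB-ALL, and SNORD104, in the lncRNA gene SNHG25, had 70.7 in KOPTK1 and 47.8 in HPB-ALL. SNORD3A ranked 18 per length in HPB-ALL and 16 in KOPTK1 over its table length of 699 bases. RefSeq gives it 217 bases, over which the same CPM would be a higher level per length. Whether SNORD86 or SNORD3A comes first therefore depends on the length used.

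**Figure D1:**
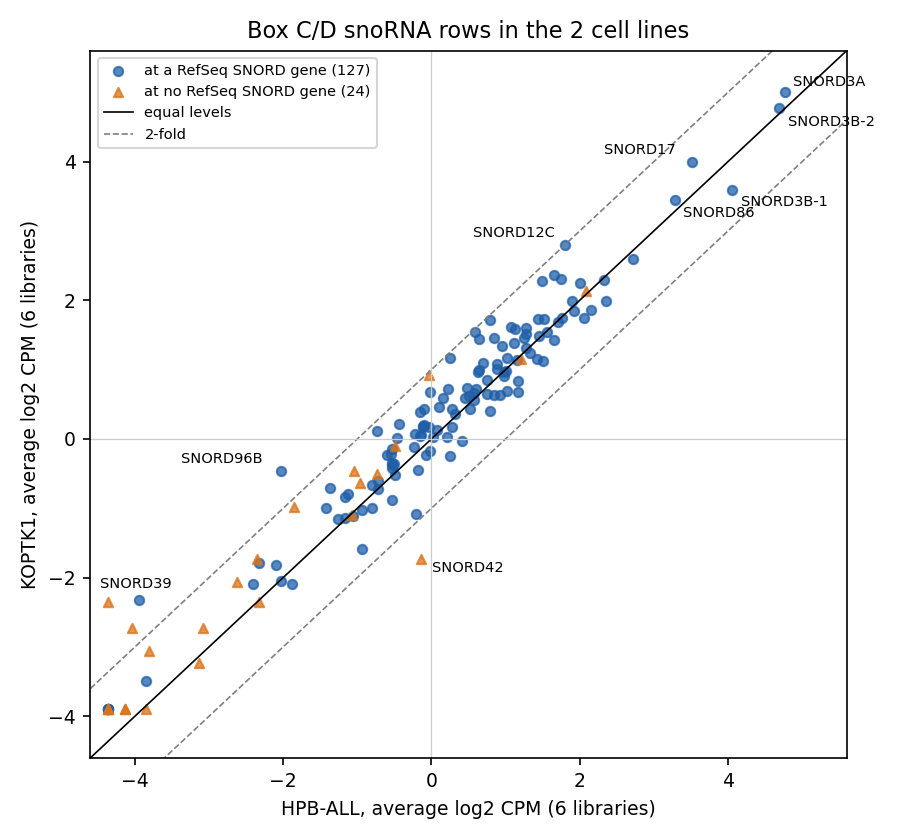
Average log2 CPM of the 151 box C/D snoRNA rows in HPB-ALL (x axis) and KOPTK1 (y axis), each over 6 libraries of both shRNA groups. Circles are the 127 rows on a RefSeq SNORD gene and triangles the 24 on none; the solid line marks equal levels and the dashed lines 2-fold. SNORD3A and SNORD3B-2 stand highest in both lines, and SNORD42, SNORD39 and SNORD96B lie outside the dashed lines at low levels.

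Many members were near or below 1 CPM in these libraries. An average log2 CPM of 0 or more, or 1 CPM, was reached by 78 members in HPB-ALL (51.7%) and 90 in KOPTK1 (59.6%). In both lines 76 reached it and in neither 59. SNORD46 and SNORD83B reached it in HPB-ALL alone, and 14 members in KOPTK1 alone. These counts per line are not given for all rows, so they have no background beside them. By the mean over both lines, 86 of the 151 members and 21474 of the 58243 rows of any kind reached 0. The value for a row with no reads was -4.36 in HPB-ALL and -3.90 in KOPTK1, and 7 members in HPB-ALL and 9 in KOPTK1 were at that value, 6 of them in both. Of all rows, 13119 in HPB-ALL and 11990 in KOPTK1 were at it. The members just inside and outside the minimum were SNORD111 at 0.03 and SNORD60 at -0.02 in HPB-ALL, and SNORD73 at 0.01 and SNORD83B at -0.04 in KOPTK1. The median member had 0.10 in HPB-ALL and 0.35 in KOPTK1.

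Whether a row lay on a RefSeq gene went with its level. Of the 127 members on a RefSeq SNORD gene, 76 in HPB-ALL and 87 in KOPTK1 were at 0 or above on the log2 CPM scale, and their medians were 0.45 and 0.60. Of the 24 at other places, 2 in HPB-ALL and 3 in KOPTK1 reached it, and the medians were -2.49 and -2.21. The exceptions were SNORD50 (2.08 and 2.14), SNORD18 on chromosome 15 (1.21 and 1.16) and, in KOPTK1, SNORD112 (-0.04 in HPB-ALL and 0.92 in KOPTK1). The row named SNORD112 lies in an intron of KAT6A.

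Among the snoRNAs of pre-rRNA processing, 5 U14 rows on RefSeq genes were all above 1 CPM in both lines. SNORD14A had an average log2 CPM of 0.88 in HPB-ALL and 1.01 in KOPTK1, and SNORD14B had 1.25 and 1.46. Both lie in introns of RPS13. SNORD14C, SNORD14D and SNORD14E, in introns of the chaperone gene HSPA8, had 1.16, 1.27 and 0.78 in HPB-ALL and 1.13, 1.31 and 1.71 in KOPTK1. A further row named SNORD14, in an intron of DNAJC27, had -2.62 and -2.06. SNORD118 (U8), which RNA polymerase II transcribes from its own promoter and which overlaps an exon of TMEM107, was at -0.16 and 0.04, and SNORD13 (U13), which also has its own promoter and overlaps an exon of TTI2, at -1.37 and -0.70. Library preparation did not mark the strand, so reads of these overlapping exons cannot be told apart from those of the snoRNA. No row carried the symbol SNORD22; a row without a symbol at its RefSeq place is described among the other observations.

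The lines differed little. A difference is given as HPB-ALL minus KOPTK1 on the log2 CPM scale, for members whose mean over both lines was at least 0. The mean minimum was passed by 86 members and missed by 65; SNORD46 was just inside it at 0.003 and SNORD93 just outside at -0.04. None of the 86 differed by 2-fold or more, where 10.5% of the 21474 rows of any kind with that mean did (6.41% lower and 4.05% higher in HPB-ALL). Differences of the 86 ran from -0.995 for SNORD12C to 0.49 for SNORD89. Of them, 72 (83.7%) were within 0.5 of 0, against 69.8% of all such rows. At 1.5-fold, 10 of the 86 differed (11.6%, against 24.4% of all rows), and all 10 were lower in HPB-ALL (13.8% of all rows). None was higher (10.6% of all rows). The median difference of the 86 was -0.11 and 53 were lower in HPB-ALL (61.6%), against a median of -0.0019 and 50.2% for all rows. Across the 86, the levels in the lines had a Pearson r of 0.934, a description over snoRNA rows that share libraries and hosts.

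Of the 10 members past 1.5-fold, all 3 SNORD12 members of ZFAS1 and 2 of the 4 members of RPL13A came from a shared host. SNORD12C had an average log2 CPM of 1.80 in HPB-ALL and 2.80 in KOPTK1, a difference of -0.995. SNORD12B had 1.66 and 2.37, a difference of -0.71, and SNORD12 had 0.84 and 1.46, a difference of -0.62. Their host ZFAS1, an lncRNA gene that carries snoRNAs in its introns, had 5.42 and 6.10, a difference of -0.68. SNORD12 overlaps an exon of ZFAS1 in the tables, and the other 2 lie 75 bases before the next exon.

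The next were in ribosomal protein genes. In RPL13A (large subunit), SNORD33 had 0.26 in HPB-ALL and 1.16 in KOPTK1, a difference of -0.91. SNORD35A had 0.64 and 1.44, a difference of -0.79. SNORD34 and SNORD32A, the other members of the gene, had differences of -0.54 and -0.46, and RPL13A itself one of -0.48. SNORD54 in RPS20 had 0.59 and 1.54, a difference of -0.95 against -0.52 for the host. SNORD101 in RPS12 had 1.49 and 2.28, a difference of -0.79 against -0.35. The remaining 3 were SNORD60 in the lncRNA gene SNHG19 (-0.69, host -0.41), SNORD112 in KAT6A (-0.96, host -0.76) and SNORD14E.

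SNORD14E was the member of this group whose host differed by the least. Its average log2 CPM was 0.78 in HPB-ALL and 1.71 in KOPTK1, a difference of -0.92. SNORD14C and SNORD14D of the same transcript had differences of 0.03 and -0.03, and HSPA8 had 10.39 and 10.38, a difference of 0.01. SNORD14E lies 157 bases before the next exon of HSPA8, and SNORD14C and SNORD14D lie 73 and 78 bases before theirs. With 1 pooled value per line, it was not tested whether the difference of SNORD14E was beyond the spread of libraries.

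On the other side, the 5 members with the largest positive differences stayed under 1.5-fold. SNORD89, with no host gene on its strand, had 1.17 in HPB-ALL and 0.67 in KOPTK1, a difference of 0.49. SNORD46 had 0.25 and -0.24, a difference of 0.49. SNORD3B-1 had a difference of 0.47, which went against SNORD3A (-0.24), SNORD3B-2 (-0.09) and SNORD3C (-0.54). SNORD83B in RPL3 had 0.41 and -0.04, a difference of 0.45, and SNORD91B, in the ribosome assembly gene TSR1, one of 0.38 with 0.60 for the host.

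A host gene on the same strand was found for 127 members, in 79 genes: 65 protein-coding, 12 lncRNA, 1 transcribed pseudogene and 1 of unsettled type (PWAR5). Of these members 118 lay within an intron and 9 overlapped a host exon. In 29 host genes there were at least 2 members, 77 in all, and 5 genes held 4. Members of 1 host share a transcript and are not independent. Over the 77 members with a mean of at least 0 and a host, the difference between lines of the member went with that of the host, with a Pearson r of 0.706 and a Spearman rho of 0.683. The sign was shared by 59 of the 77, and 70 lay within 0.5 of the host's difference. The second count says little about hosts, since 83.7% of the 86 members with that mean lay within 0.5 of 0. The correlations are descriptions, and the points share libraries. Where a member overlaps or lies near a host exon, the same reads can also count for both rows. How far this adds to the correlations was not tested. For the differences, r was 0.766 over 46 host genes when each counted as 1 median. The levels did not go together in this way. Over the same 77, the Spearman rho of member and host average log2 CPM was -0.229 in HPB-ALL and -0.215 in KOPTK1.

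**Figure D2:**
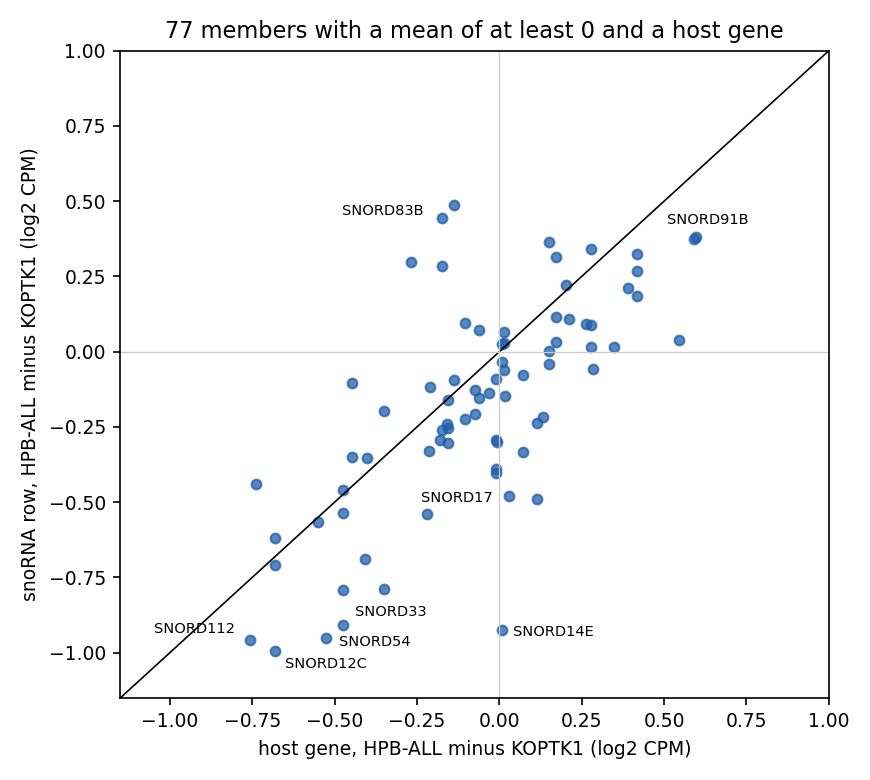
Difference between lines (HPB-ALL minus KOPTK1, log2 CPM) of the host gene (x axis) and of the snoRNA row (y axis) for 77 members with a mean of at least 0 and a host; each point is 1 member and the line marks equal differences. SNORD14E lies far below the line at a host difference of 0.01, and SNORD83B lies above it.

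By kind of host, members in ribosomal protein genes and in lncRNA genes were mostly lower in HPB-ALL and the others were not; these classes were drawn up after the values were seen. In genes whose symbol starts with RPL or RPS, 27 of 32 members with a mean of at least 0 were lower in HPB-ALL, with a median difference of -0.26, and 14 of their 16 host genes were lower too, with a median of -0.18. In lncRNA genes all 8 such members were lower, with a median of -0.59, as were all 5 hosts (ZFAS1, SNHG12, SNHG19, SNHG25 and SNHG32), with a median of -0.55. That median is the value of SNHG25, whose levels of 1.82 and 2.37 were close to those of its member SNORD104 (1.74 and 2.31). How many reads such a host shares with its member was not tested, so the hosts are not a separate check. Rows without a symbol, which are not members, went both ways in lncRNA genes. SNORD50B in SNHG5 (0.44) and SNORD49A in SNHG29 (0.36) were higher in HPB-ALL, and SNORD87 in SNHG6 (-0.47) and SNORD25 in SNHG1 (-0.39) were lower. In other genes 14 of 37 members were lower, with a median of 0.03, and 6 of 25 hosts, with a median of 0.15. Among the members of ribosomal protein genes that were not lower were SNORD83A and SNORD83B in RPL3, and SNORD58A and SNORD58B in RPL17.

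Several hosts with most members show how far their members went together. All 4 members of RPL13A were lower in HPB-ALL, between -0.91 and -0.46. In RPL23A (host -0.40) all 4 were lower, between -0.86 and -0.34, although only SNORD4A passed the minimum. In RPL4 (host -0.16) they ran from -0.30 to -0.03. In RPL7A the host was level at -0.01, and its members SNORD24, SNORD36A, SNORD36B and SNORD36C ran from -0.40 to -0.09. In RPL3 (host -0.17), SNORD43 was lower in HPB-ALL at -0.26, while the like sequences SNORD83A and SNORD83B were higher, at 0.29 and 0.45.

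In 3 host genes with 3 members each, the host and the rows taken as members were all higher in HPB-ALL. NOP58, itself a box C/D core protein gene, had a difference of 0.42, and its members SNORD11, SNORD11B and SNORD70 had 0.27, 0.19 and 0.32. GNL3 (nucleostemin) had 0.28, and SNORD19, SNORD19B and SNORD69 had 0.34, 0.09 and 0.01. The members SNORD19 and SNORD70 lie on RefSeq genes of a related symbol. The rows at the RefSeq genes SNORD19 and SNORD70 themselves, within GNL3 and NOP58, are not members. Their differences were -0.0015 and -0.01, so neither was higher in HPB-ALL. In RABGGTB (host 0.17), which encodes a subunit of an enzyme that prenylates Rab proteins, the SNORD45 members ran from 0.03 to 0.31.

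Of the 65 members below the minimum, 5 differed by at least 2-fold (7.69%), where 16.8% of all 36769 rows below it did. Without the rows at the no-read value in both lines, the shares were 8.47% of 59 members and 22.8% of 27104 rows. SNORD42 in TTC28 had -0.14 in HPB-ALL and -1.73 in KOPTK1, a difference of 1.6, and TTC28 had 1.5. SNORD39 in the lncRNA gene MIR31HG was at the no-read value of -4.36 in HPB-ALL and at -2.36 in KOPTK1. MIR31HG was also at the no-read value in HPB-ALL and at -2.28 in KOPTK1, so its difference of -2.08 is likewise set by that value. SNORD42 and SNORD39 lie 69156 and 47014 bases before the next exon of their hosts, away from any RefSeq SNORD gene. SNORD96B, in an intron of AMMECR1, had -2.04 and -0.46, a difference of -1.57 against -0.24 for the host. SNORD109B and SNORD81 were below -2 in both lines. At such levels the no-read values of the tables alone differ by -0.46.

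The place of a member in its intron was recorded as the number of bases from its 3′ end to the next exon of the host. For 106 members on a RefSeq gene and within an intron, the median was 123 bases, with quartiles of 79.3 and 437. Of them 45 (42.5%) lay between 50 and 100 bases before the next exon. For the 12 members within an intron at places with no RefSeq gene, the median was 11228 bases and 0 of 12 lay in that range. SNORD50, 148 bases before the next exon of VPS29, was the closest of these. Over all 118 members within an intron the median was 160.5 bases, with 38.1% between 50 and 100. All box H/ACA rows within introns, taken without regard to RefSeq, had a median of 657 bases (n = 89), with 19.1% in that range. No test was made of these differences in place.

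**Figure D3:**
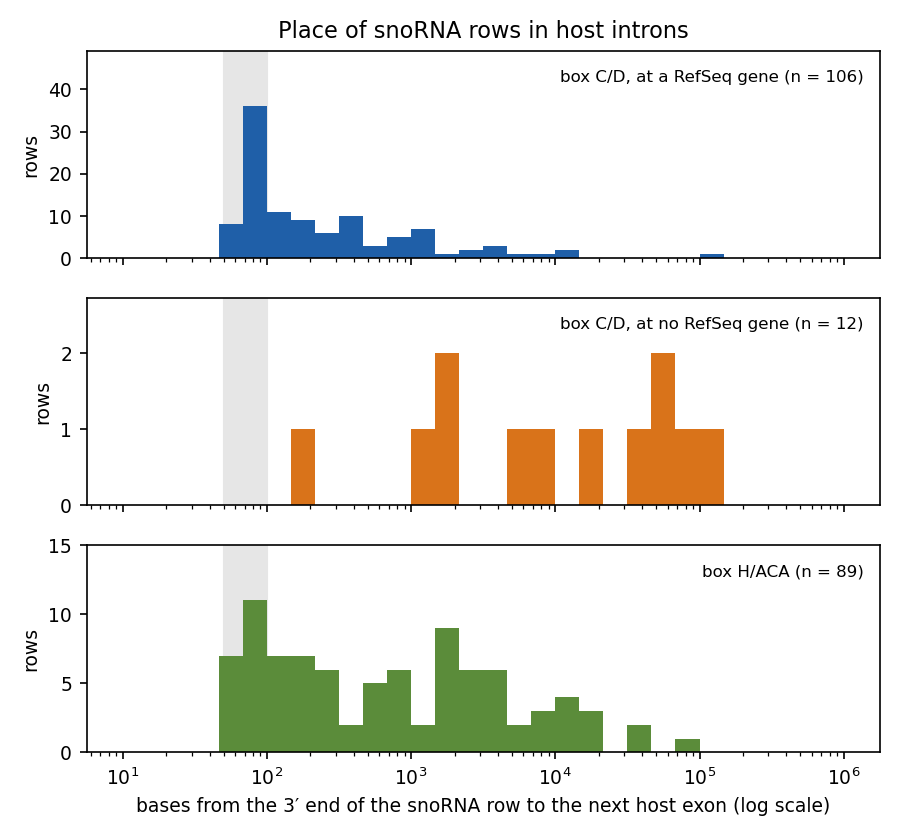
Number of rows (y axis) by the bases from the 3′ end of the snoRNA row to the next exon of its host (x axis, log scale) for 106 box C/D members on a RefSeq gene, 12 on none and 89 box H/ACA rows; the grey band marks 50 to 100 bases. Box C/D members on a RefSeq gene crowd in the band, and none of the 12 others lies there.

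Beside the other snoRNA classes, the order of the levels depended on length. By average log2 CPM, the 151 box C/D members had medians of 0.10 in HPB-ALL and 0.35 in KOPTK1, below the 111 box H/ACA rows (0.43 and 0.60) and the 20 scaRNA rows of the Cajal body (0.37 and 0.76). Per kilobase, the box C/D medians of 12.8 and 14.8 CPM were above those of box H/ACA rows (9.61 and 11.1) and scaRNA rows (10.3 and 10.6), whose median lengths were 134 and 143.5 bases. These lengths, and the 79 bases of box C/D members, are below 1 read of 150 bases. Whether counts scale with length in such short rows was not tested, so the order per kilobase may reflect the division by length. The lines differed as little in box H/ACA rows: with a mean of at least 0, their median difference was -0.12, 50 of 72 were lower in HPB-ALL and 1 differed by 2-fold.

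The genes of the box C/D proteins were at high levels in both lines. FBL had an average log2 CPM of 7.05 in HPB-ALL and 6.99 in KOPTK1, and NOP56 had 7.92 and 7.98. NOP58 had 7.43 and 7.01, and SNU13 had 6.64 and 6.20. None of the 4 differed by 1.5-fold. The assembly factors NUFIP1, ZNHIT3, ZNHIT6, PIH1D1, RPAP3, RUVBL1 and RUVBL2 lay between 4.37 and 7.48 in HPB-ALL and between 4.66 and 6.82 in KOPTK1. RUVBL2, an ATPase of the assembly machinery, differed most, with 7.48 and 6.82, a difference of 0.66. SHQ1, the target of the knockdown, had averages of 7.49 and 7.03 over both shRNA groups, which do not check the knockdown. All 10 T-lineage markers were at an average log2 CPM of 0 or more in both lines, from 1.57 to 9.13 in HPB-ALL and from 2.34 to 9.33 in KOPTK1. Of 16 markers of B cells, myeloid cells, erythroid cells and stroma, 3 reached 0 in HPB-ALL and 5 in KOPTK1, CD79A being the highest at 5.77 and 4.34.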

How the data were processed

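HPB-ALL and KOPTK1 cells with control or SHQ1 shRNA (3 libraries each) were sequenced as 150 bp paired-end reads from rRNA-depleted RNA, with a kit that does not mark strand. The submitters' processing notes name Trimmomatic 0.36, STAR 2.5.4b, Picard 2.18.7, featureCounts 1.6.2, edgeR 3.22.3 and hg38; the methods name hg19 for the splicing analysis. The log2 values used are the average log2 CPM that the authors deposited, 1 per gene and line over 6 libraries, normalized separately in 2 tables. The summed exon length of each gene was also taken as deposited by the authors.

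The 12 columns of single libraries are headed by numbers that match no sample label and were not used in any step. The authors' columns of log2 fold change, F statistic, p-value and FDR hold their own comparison and were not used either. The planned test of SHQ1 shRNA against control shRNA was therefore not made, and the depth and precision of single libraries are not given. GAS5 and its snoRNAs are not described because no member lay in that gene. The values of 1 further host gene are not reported here.

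Rows were named through their Ensembl identifiers (95.9% had a symbol). The averages were turned back from the log2 scale into CPM and divided by the length in kilobases for levels per length. A host gene was the row of the shortest span on the same strand that was no small RNA and contained the member; its exons are the union of those in the table. The coordinates match RefSeq GRCh38.p14 and were not combined with the GRCh37 genome at hand; sequences were looked up by identifier in GENCODE 44. Identity is the share of equal positions in a global alignment with a score of 1 for a match and -1 for a mismatch or a gap base. The steps that find hosts, positions and differences were checked on simulated rows with planted values without noise. Python 3.11.15, pandas 2.3.3, numpy and scipy 1.17.1 were used.

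The members, gene lists and alternatives were chosen with earlier results of these data known. Named were the 5 highest members by level and per length in each line, the 5 largest differences each way, the snoRNAs of pre-rRNA processing, members of hosts that hold several, those next to a minimum, the host genes, and the protein genes given. Further members were named after their values were seen: the rest past 1.5-fold, those past 2-fold at low levels, those at places without a RefSeq gene, and those of hosts with 3 members. The alternatives were other minimums, folds, hosts and length scaling, median centring, removal of the no-read value and sums over the rows of a symbol.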

Additional observations from a re-analysis of the deposited data

How the results depend on the processing

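No paired analysis was possible because the columns of single libraries carry no replicate number that matches a label. For the same reason no library was left out, and the comparison of SHQ1 shRNA with control shRNA was not run. The number of members at a level depended on the minimum. With a minimum of 1 it was 42 in HPB-ALL and 47 in KOPTK1, with any value above that of no reads 144 and 142, and with 1 CPM per kilobase 138 and 143. With a minimum of -2 it was 127 in HPB-ALL. Members past the fold between lines, 0 at 2-fold, became 2 with a mean of at least -2, 5 with no minimum and 10 at 1.5-fold. With the no-read value subtracted the count was 1, since SNORD12C moved from -0.995 to -1.002. Per kilobase, the median of box C/D members turned from below to above the other classes on the log2 scale: by 0.418 in HPB-ALL and 0.415 in KOPTK1 against box H/ACA rows (from -0.323 and -0.243), and by 0.325 and 0.484 against scaRNA rows (from -0.27 and -0.402). The median difference between lines ran from -0.196 to -0.089, and the share lower in HPB-ALL from 61.3% to 66.9%, over all alternatives run. The Pearson r of member and host differences ran from 0.676 to 0.766. All 78 recomputed differences stayed within 0.1 of the value given. They belong to members named for a high level, a largest difference or pre-rRNA processing. Differences of the other members in the text were not recomputed singly. The alternatives for these 78 were removal of the no-read value, sums over rows and median centring, which keep the member row. Row placement by RefSeq was not among these alternatives, and it replaces the SNORD112 row (-0.957) by one at the no-read value in both lines. Membership by RefSeq position, and each host counted as 1 median, were chosen after seeing the data: with rows placed by RefSeq there were 159 members, of which 95 in HPB-ALL and 108 in KOPTK1 had at least 0, and none of 102 differed by 2-fold. Depth limits what can be read from members near the no-read values, which differ between the tables by -0.46.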

Other observations

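The tables hold 33 rows that lie on a RefSeq SNORD gene but whose identifier has no symbol in the list used. Of these, 6 overlap a member row and 27 do not, and of the 27, 17 in HPB-ALL and 19 in KOPTK1 had an average log2 CPM of at least 0. They include 6 rows in introns or exons of SNHG1, a well-known snoRNA host gene whose own averages were 6.78 and 6.81, none of which is a member. The row at SNORD22 (U22, needed for processing of 18S rRNA) had 2.46 in HPB-ALL and 2.63 in KOPTK1. The row at SNORD26 had 2.13 and 2.40, that at SNORD25 had 1.52 and 1.91, and the 6 rows together ran from 1.23 to 2.46 in HPB-ALL and from 1.27 to 2.63 in KOPTK1.

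For several symbols the member row is therefore not the row at the RefSeq gene. The row at SNORD27 in SNHG1 had 1.84 and 1.93, whereas the member of that symbol, on chromosome 13, had -2.36 and -1.73. The rows at SNORD28 and SNORD30 in SNHG1 had 1.95 and 1.90, and 1.23 and 1.27, whereas the members of those symbols were at the no-read value in both lines. The row at SNORD56 in NOP56 had 0.55 and 0.59, whereas the member, in EDEM2, had -2.33 and -2.36. SNORD57, next to it in NOP56, had 1.34 and 1.65 and no member row. SNORD65 in SNHG29 had 0.67 and 0.48, close to the member on chromosome 7 at 0.32 and 0.35. SNORD112 went the other way: the row at its RefSeq gene on chromosome 14 was at the no-read value, and the member in KAT6A had -0.04 and 0.92.

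The SNHG29 rows SNORD49A and SNORD49B had 1.85 and 2.46 in HPB-ALL and 1.49 and 2.46 in KOPTK1, and SNORD50B in SNHG5 had 1.57 and 1.14. A U3 gene without a symbol, SNORD3D, was covered by a row of 217 bases and one of 218 bases, which overlap each other and a longer lncRNA row, at 1.42 and 1.43 in HPB-ALL and 1.72 in KOPTK1. Among the 27, no row with a mean of at least 0 differed by 2-fold between the lines.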
